A study of Mus musculus with 2 samples.

Results

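The Indian hedgehog and PTHrP loop was taken as 9 genes: the ligand gene Ihh, the receptor genes Ptch1 and Smo, the transcription factor genes Gli1, Gli2 and Gli3, the decoy receptor gene Hhip, the ligand gene Pthlh and its receptor gene Pth1r. Its members were found as non-control spots of the array whose transcript accession belonged to one of these genes. This gave 11 probes of 9 genes, of 20657 genes with a named probe, and every gene had at least 1 probe. RNA came from ATDC5, a mouse chondrogenic cell line, in 2 stable lines with a doxycycline-inducible transgene. One line carried GFP as the control and the other A-CEBP, a dominant-negative protein that binds C/EBP transcription factors and blocks their contact with DNA. Both lines had 2 µg/mL doxycycline for 2 days and were differentiated for 3 weeks with ITS (insulin, transferrin and selenite), so the control differed from the A-CEBP line in its transgene but shared doxycycline and ITS. Each group held 1 sample on 1 array, and the labels do not say whether a line was 1 clone.

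In the growth plate, Indian hedgehog is secreted by chondrocytes that have stopped dividing and begin to enlarge. It binds Patched, which otherwise holds Smoothened inactive, and active Smoothened works through the primary cilium to let GLI proteins switch on target genes, among them Gli1, Ptch1 and Hhip. Indian hedgehog also raises the production of PTHrP, the product of Pthlh, which acts through the receptor PTH1R, a Gs-coupled receptor that raises cyclic AMP, and delays the step at which Ihh comes on. The pair thus forms a feedback loop that sets how long chondrocytes keep dividing.

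The ligand gene Ihh and the target gene Gli1 were 2.94-fold and 2.52-fold higher in the A-CEBP sample, the only members past the 2-fold size rule. Gli2, Pth1r and Pthlh were 1.71-fold, 1.59-fold and 1.502-fold higher, Ptch1 1.48-fold and Smo 1.27-fold higher, and Gli3 differed by 1.04-fold. Hhip was not well above background on either array. There were 8 members with a measurement on each array. Of these, 2 were at least 2-fold higher, against 1.26% of the 13860 genes so measured, and 0 were at least 2-fold lower, against 1.7% of all genes (2.96% for both directions). At 1.5-fold the counts were 5 of 8 higher and 0 lower, against 4.7% and 3.8% of all genes (8.51% for both directions). The difference was above 0 for 8 of 8 members and for 59.1% of all genes, and its median was 0.63 (log2) over the members and 0.05 over all genes. With 1 sample in each group there was no test between the lines and no p-value, and the errors given with signals and differences cover measurement on the array only.

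Defining genes of the labelled cell type were present. All 9 fixed chondrocyte markers were well above background on both arrays. The difference was above 0 for 8 of them, against 59.1% of all genes, and its median was 0.63, as over the loop members. Of the 9, 2 were at least 2-fold higher (Hapln1 at 1.42 and Acan at 1.30) and 0 lower, against 1.26% and 1.7% of all genes. At 1.5-fold, 7 were higher and 0 lower, against 4.7% and 3.8% of all genes. Their summed signal was 359.5 for GFP and 496.03 for A-CEBP, in units of each array's 75th percentile. That sum is led by 1 bright probe, Col2a1, at 8.22 and 8.65 on the scaled log2 scale. Levels of different probes are not comparable, so the sums given here do not rank cell types. Markers of other cells were present too. Osteoblast markers were measured in 3 of 3 genes with a probe (summed signal 66.3 and 76.6, median difference 0.89 on the log2 scale), of which Ibsp and Dmp1 are also genes of late chondrocytes, and fibroblast and perichondrium markers in 5 of 5 (699 and 814, median 0.08). Of the osteoblast markers, Dmp1 differed by 1.31, Sp7 by 0.89 (1.12 with scaling on spike-in spots) and Ibsp by 0.15. Leukocyte markers were measured in 4 of 7 (25.1 and 28.4, median 0.03). These were Itgam at 0.23 (-0.57 on its other detected probe), Csf1r at -0.14 (0.36 on its other detected probe), Cd14 at -0.84 and Cd3e at 0.20. Itgam was bright, at 18864 and 22989 units. The pan-leukocyte gene Ptprc, the macrophage gene Adgre1 and Cd79a were not well above background on either array. Of the muscle markers 1 of 4 was measured, Acta1, at 347 and 622 units (0.79), and Myod1, Myog and Ckm were not well above background. Of the endothelial markers 2 of 4 were measured, Kdr at 0.09 (-0.39 on its other probe) and Pecam1 at -0.20 (0.02 with scaling on spike-in spots), while Cdh5 and Tek were not well above background. Among adipocyte markers Fabp4 differed by -1.92 and Pparg by 0.31, and Adipoq and Plin1 were detected with A-CEBP only, with bounds under 2-fold. Of the epithelial markers Krt8 differed by -1.03 (-0.57 with normexp), Cdh1 was detected with A-CEBP only, at least 2.57-fold higher, and Epcam was not detected. In a bulk culture, a change in the share of a cell type and a change of RNA per cell cannot be told apart, and the part of any of these markers in the results for the loop was not tested. The spots well above background made up 54.6% and 58.0% of 59305, and none was saturated. No probe was named for the GFP or A-CEBP transgene, so their expression was not checked.

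Promoter sequence was taken from RefSeq (build GRCm38.p6) for 8 of the 9 members, Gli1 having no entry, as 10 windows of 250 bases before and 50 after a gene start. The 250 bases before the start are printed for Ihh, the member with the largest difference, for Ptch1 and Gli2, which encode the hedgehog receptor and a GLI factor, and for Pthlh, the ligand gene that closes the loop. All 4 lie on the minus strand, at chr1:74951673-74951922 for Ihh, chr13:63565736-63565985 for Ptch1, chr1:119053620-119053869 for Gli2 and chr6:147264014-147264263 for Pthlh. Capitals mark GC boxes (GGGCGG on either strand) in Ihh, Ptch1 and Pthlh, and a GLI core (ACCACCC on either strand) in Gli2. Gli2 also has a GC box, starting 157 bases before the gene start, which is left in lower case.
Ihh: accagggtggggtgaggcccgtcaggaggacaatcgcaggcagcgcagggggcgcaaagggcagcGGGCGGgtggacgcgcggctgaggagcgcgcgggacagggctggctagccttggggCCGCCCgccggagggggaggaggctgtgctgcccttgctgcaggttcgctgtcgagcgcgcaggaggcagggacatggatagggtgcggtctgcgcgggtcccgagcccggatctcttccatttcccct
Ptch1: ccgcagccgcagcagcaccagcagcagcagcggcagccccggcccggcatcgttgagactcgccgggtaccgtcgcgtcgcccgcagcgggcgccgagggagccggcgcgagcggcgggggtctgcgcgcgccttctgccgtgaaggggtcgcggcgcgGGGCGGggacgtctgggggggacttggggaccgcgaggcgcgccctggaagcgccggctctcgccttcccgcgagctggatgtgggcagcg
Gli2: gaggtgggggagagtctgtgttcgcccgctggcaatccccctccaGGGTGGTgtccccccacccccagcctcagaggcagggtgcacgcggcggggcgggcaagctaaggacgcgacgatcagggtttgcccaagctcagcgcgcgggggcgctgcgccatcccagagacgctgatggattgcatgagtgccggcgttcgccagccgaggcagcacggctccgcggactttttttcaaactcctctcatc
Pthlh: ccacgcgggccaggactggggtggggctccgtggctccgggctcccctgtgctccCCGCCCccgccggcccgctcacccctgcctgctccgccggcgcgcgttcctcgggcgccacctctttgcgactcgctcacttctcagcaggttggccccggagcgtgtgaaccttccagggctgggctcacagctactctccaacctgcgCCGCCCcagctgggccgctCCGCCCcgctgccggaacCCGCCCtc

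Both strands of the 10 windows were searched for 7 motifs, and a match describes letters only, not a bound site. The full GLI site GACCACCCA, which contains the GLI core, had no match in any of the 10 windows, and 0.253% of 32851 promoters of the same length had one. The GLI core ACCACCC matched in Gli2 only, starting 205 bases before the gene start, against 4.61% of all promoters. The C/EBP core TTNCGNAA and the C/EBP-ATF site TGATGCAA had no match in the windows, against 2.47% and 0.895% of all promoters. A cyclic AMP response element, TGACGTCA, matched in Hhip only, 75 bases before the start (1.79% of all promoters), and a RUNX core, TGTGGT, matched in Gli3 only, 120 bases before the start (16.8%). GC boxes matched in 8 windows of 7 genes, against 35.7% of all promoters. All members but 1 window of Pth1r had GC-rich windows, with 67.3% to 76.3% G and C, and that window had 54.3%, against a median of 52.7% over all promoters.

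On the ligand side, the Ihh probe read 522 ± 52.9 intensity units (scanner error) with GFP and 1594 ± 160 with A-CEBP, the array's processed signal before scaling. After each array's 75th percentile was subtracted on the log2 scale, these were -0.74 and 0.82, a difference of 1.56 with a scanner error of 0.21. The Ihh signal therefore passed from below to above the 75th percentile of all spots. Of all genes measured on both arrays, 29 (0.209%) had a difference at least as high. The 12 measured spots within 2 rows and columns of the Ihh spot had a median difference of 0.21. Ihh had 1 probe with 1 spot, so no second reading was at hand.

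The other hedgehog ligands were not seen. Shh and Dhh, which encode Sonic and Desert hedgehog, were each not well above background on either array, at -6.79 and -7.21 for Shh and -5.96 and -5.99 for Dhh on the scaled log2 scale. Ihh was thus the 1 hedgehog ligand gene of 3 with a measured signal in these cultures.

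**Figure D1:**
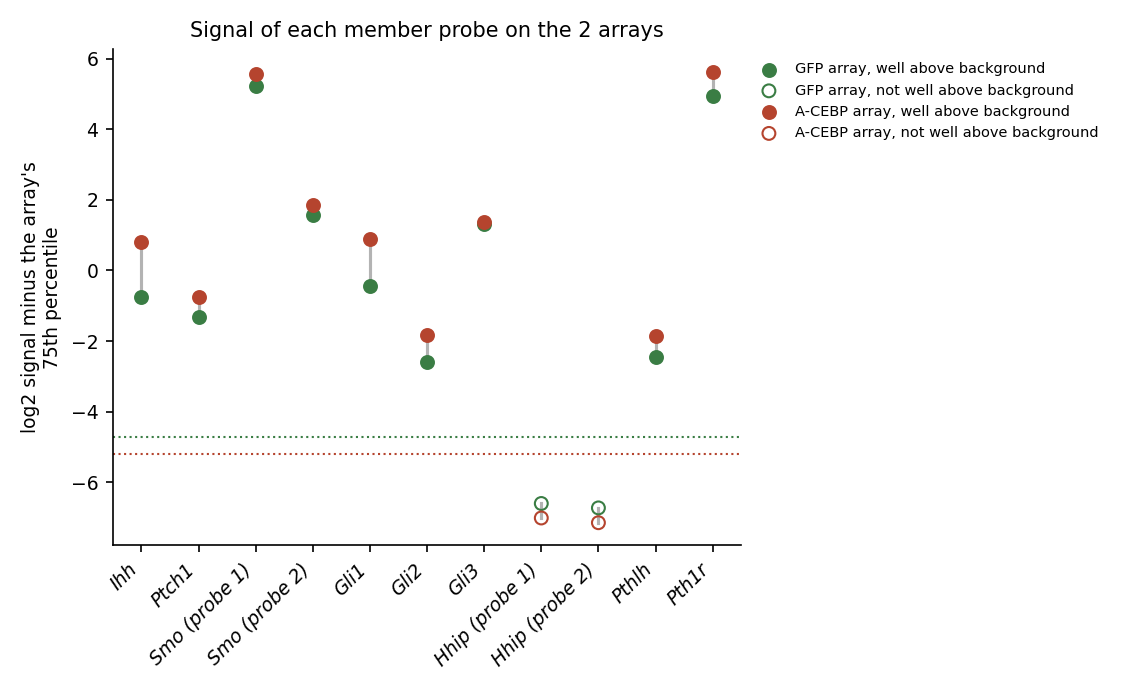
Log2 processed signal minus each array's 75th percentile (y axis) for the 11 probes of the loop, with the GFP and A-CEBP arrays as points joined by a line, open where a probe was not well above background; dotted lines are the lowest signal well above background on each array (-4.73 for GFP, -5.19 for A-CEBP). Ihh moved from -0.74 to 0.82 and Gli1 from -0.44 to 0.89, while both Hhip probes lay under the dotted lines; levels of different probes are not comparable.

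At the receptor, Ptch1, which encodes the hedgehog receptor and is also a target of the pathway, read 352 ± 36.3 units with GFP and 540 ± 54.4 with A-CEBP. Its difference of 0.56 (scanner error 0.21) was exceeded or equalled by 5.19% of all genes. Smo, the signal transducer that Patched inhibits, had 2 probes. The brighter read 32635 ± 3263 and 42865 ± 4287 units and the dimmer 2584 ± 259 and 3291 ± 329 units. Their differences of 0.34 and 0.29 lay closer together than the SD of 0.19 found between probes of a gene over 3601 genes. Both receptor genes had the higher signal with A-CEBP, and neither reached 2-fold.

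The GLI factors, which carry the signal to DNA, differed from one another. Gli1, an activator whose transcription depends on hedgehog signalling, read 644 ± 65.0 units with GFP and 1683 ± 168 with A-CEBP. Its difference was 1.33 with a scanner error of 0.21, and 50 genes (0.361%) had one at least as high. Gli2, the main activator at the start of the response, read 144 ± 17.1 and 256 ± 26.5 units, a difference of 0.77 (scanner error 0.23). The Gli2 spot was dim, with a median pixel signal of 205 over a local background of 40 with GFP and 285.5 over 35 with A-CEBP. Gli3, which mostly acts as a repressor when the ligand is absent, read 2177 ± 218 and 2361 ± 236 units, a difference of 0.06, within the scanner error of 0.20.

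Set against each other, the difference of Gli1 was larger than that of Gli3 by 1.27 (log2), with a scanner error of 0.29 for the pair, and larger than that of Ptch1 by 0.77, with the same error. The difference of Gli2 was larger than that of Gli3 by 0.71 (scanner error 0.31). Ihh and Gli1 lay 0.22 apart, within the scanner error of 0.29. These errors are those of the 2 readings and hold no spread between cultures.

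Hhip, a membrane protein that binds hedgehog ligands and is a pathway target, had 2 probes. They read 8.98 ± 9.01 and 8.24 ± 8.26 units with GFP and 7.02 ± 7.04 and 6.40 ± 6.41 with A-CEBP, so each reading was smaller than its own error. No fold is given for Hhip, and a difference in it was not detectable with these arrays.

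On the PTHrP side, Pthlh read 161 ± 18.1 units with GFP and 251 ± 25.9 with A-CEBP. Its difference was 0.59 with a scanner error of 0.22, at 1.502-fold, and 4.68% of all genes had one at least as high. The Pthlh spot was dim, at 244.5 over a local background of 48 in the GFP sample. Pth1r was bright, at 26995 ± 2700 and 44674 ± 4467 units, and its difference of 0.67 (scanner error 0.20) was reached by 3.56% of all genes. The ligand and receptor genes of this arm differed from each other by 0.09 (scanner error 0.30), and Ihh exceeded Pthlh by 0.97 (scanner error 0.30). Pth and Pth2, which encode related ligands, and Pth2r were not well above background on either array.

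**Figure D2:**
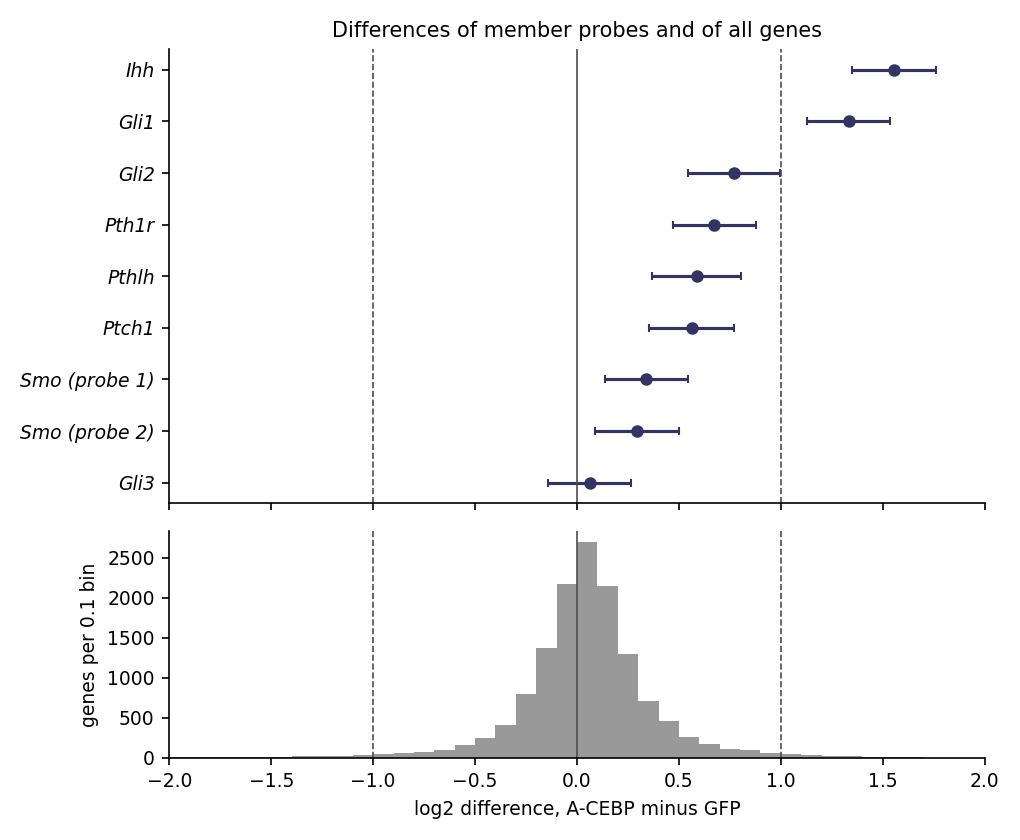
Upper panel: log2 difference, A-CEBP minus GFP (x axis), of the 9 member probes measured on both arrays, with bars for 1 scanner error either way; lower panel: number of genes per bin of 0.1 among those measured on both arrays, drawn from -2 to 2, which leaves out the genes beyond. Dashed lines mark 2-fold; Ihh (1.56) and Gli1 (1.33) lay beyond the line and Gli3 (0.06) near the centre of all genes.

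The wider lists held 84 further genes, all with a probe, of which 75 were measured on both arrays. They take in the 12 chondrocyte stage genes described below, which describe the stage of the cultures and not the pathway. Of the 75, 6 were at least 2-fold higher and 2 at least 2-fold lower, against 1.26% and 1.7% of all genes. The 6 include the stage gene Acan and the 2 the stage gene Mmp13. The median difference over the 75 was 0.15, against 0.05 for all genes. Among the 11 genes for hedgehog ligands and their release, 8 were measured, 2 of them at least 2-fold higher and 0 lower, with a median of 0.37. Scube3, of a family of secreted proteins that help release lipid-modified hedgehog ligands, read 726 and 1615 units and was 2.14-fold higher. Scube2, of the same family, was 3.27-fold higher on its brighter probe (92.5 and 314 units), but its other probe differed by -0.19 (51.8 and 47.1 units). Its call therefore rested on the probe taken. Hhat, the acyltransferase that adds palmitate to hedgehog ligands, and Scube1 differed by 0.46 each, and Ext1, an enzyme of heparan sulfate synthesis, by -0.46. Gpc3 was not well above background on either array.

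Of 5 receptor and co-receptor genes, 3 were measured. Gas1, a co-receptor that hedgehog signalling represses, was 2.11-fold lower on its brightest probe (7601 and 3747 units). Its other probes differed by -1.32 and -0.46, so all 3 were lower by different amounts, and 1 of them was under 2-fold. The 2-fold call was lost with scaling on spike-in spots (-0.85) and with the mean over probes (-0.95). The co-receptors Cdon and Boc differed by 0.28 and 0.21. Lrp2 was well above background with A-CEBP only, and its readings of -4.89 and -4.83 gave no bound above 1.

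All 17 genes of signal transduction and the cilium were measured, and 1 was at least 2-fold higher, 0 lower, with a median of 0.06, or -0.01 with the dimmest detected probe of each gene. Arrb1, which encodes a beta-arrestin, an adaptor of activated receptors, read 748 and 1942 units and was 2.50-fold higher (1.32), whereas its relative Arrb2 differed by 0.04 (-0.02 with the authors' deposited values). On the brightest probe of each gene, the next largest were the ciliary kinesin gene Kif3a at -0.29, Gpr161 at -0.24 and the ciliary transport gene Tulp3 at 0.22. Gpr161, a ciliary receptor that restrains the pathway, was dim, at 62.4 and 55.0 units. Gsk3b and Evc differed by -0.04 and 0.09 on their brightest probes, but by as much as 0.55 and -0.34 on others. Sufu, the main inhibitor of GLI proteins, and Kif7 differed by 0.12 and 0.09, and the other probe of Sufu by -0.42.

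Of 13 other reported hedgehog targets, 11 were measured, 2 at least 2-fold higher and 1, Gas1, at least 2-fold lower, a call that spike-in scaling and the mean over probes ended. Their median was -0.02, or 0.20 with scaling on spike-in spots. The cyclin genes Ccnd2 and Ccnd1, which drive entry into S phase, read 3881 and 9264 units and 2209 and 5034 units, 2.30-fold (1.20) and 2.20-fold (1.13) higher. The forkhead gene Foxf2 differed by -0.38. Mycn was not well above background on either array. Of the 11, 5 had a difference above 0, against 59.1% of all genes, or 8 with scaling on spike-in spots, which raised all genes. Gas1, which hedgehog signalling represses, is among those below 0, so the count and the median pool genes with different responses to the pathway. Also below 0 were the dim genes Foxl1 (45.2 and 40.4 units, -0.22), Nkx3-2 (66.8 and 58.3 units, -0.25) and Osr2 (80.1 and 71.8 units, -0.21), and Foxc2 at -0.02.

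On the PTHrP side, 25 of 28 listed genes were measured. None was 2-fold or 1.5-fold apart on its brightest probe under the reported processing. Creb1 differed by 0.26 on that probe but by 0.70, past 1.5-fold, on its other probe. With scaling on spike-in spots Mef2c (0.79), Pde10a (0.69), Adcy3 (0.62) and Gnaq (0.61) passed 1.5-fold. The difference was above 0 for 21 of 25, against 59.1% of all genes, with a median of 0.21. With scaling on spike-in spots, where the median of all genes was itself 0.27, 22 were above 0, and with the authors' deposited values 17. Mef2c, a transcription factor of hypertrophy held in check by class II histone deacetylases, differed by 0.56. The cyclic AMP genes Pde10a (a phosphodiesterase) and Adcy3 (an adenylyl cyclase) differed by 0.47 and 0.40, and Nr4a2, an early target of cyclic AMP signalling, by -0.39. Gnas, which encodes the Gs alpha subunit, differed by 0.26 on its brightest probe and by -0.13 on another, Hdac4 by 0.22 and Sik3 by 0.21. Zfp521, a nuclear factor downstream of PTHrP, differed by 0.35. The differences were small beside those of Ihh and Gli1.

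**Figure D3:**
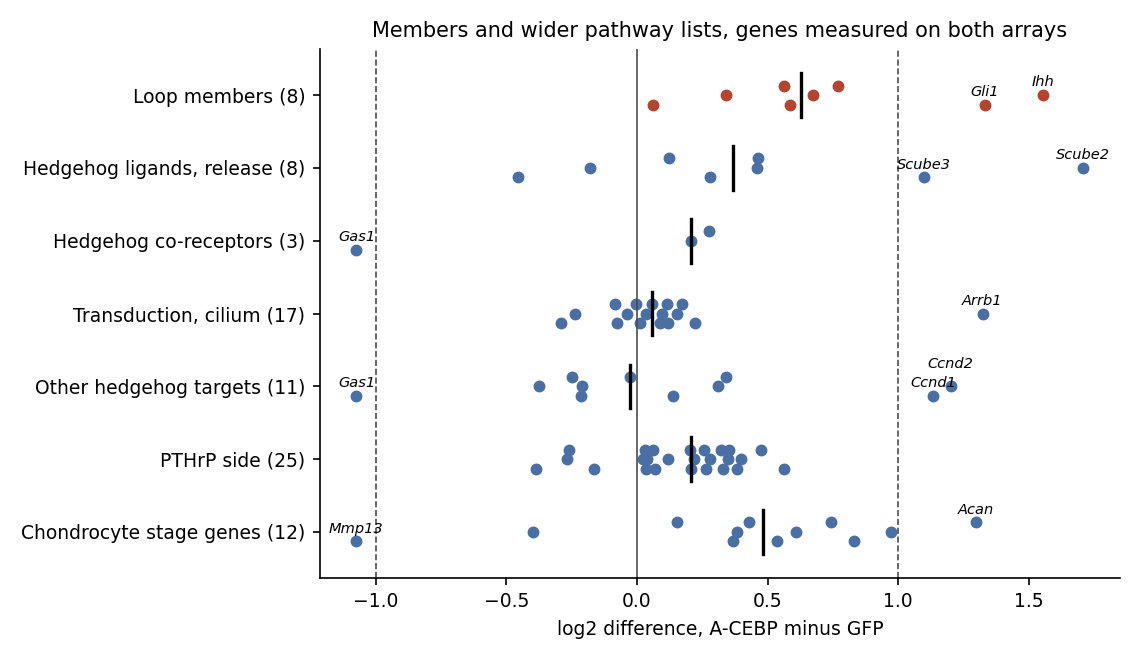
Log2 difference, A-CEBP minus GFP (x axis), of each gene measured on both arrays, in rows for the loop members and the wider lists with the number of genes in parentheses; black bars are medians, dashed lines 2-fold, and genes at least 2-fold apart are named. The member median was 0.63, that of the PTHrP side 0.21 and that of the cilium list 0.06; Gas1 stands in 2 rows, and points are offset vertically for legibility.

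The stage of the cultures was described by 12 chondrocyte genes, all measured, with a median of 0.48. Of these, 1 was at least 2-fold higher and 1 lower, against 1.26% and 1.7% of all genes. At least 1.5-fold higher were 5, against 4.7% of all genes. Aggrecan (Acan) differed by 1.30 and the collagenase gene Mmp13 by -1.07 (-0.85, under 2-fold, with scaling on spike-in spots). Runx3 and Runx2, which encode factors that act upstream of Ihh, differed by 0.74 and 0.37, and their other probes by 0.46 and 0.05. Genes of the hypertrophic and mineralising stage went both ways, with Col10a1 at 0.97, Alpl at 0.83, Ibsp at 0.15 and Spp1 at -0.40. Col10a1 passed 2-fold without scaling, with normexp and with scaling on spike-in spots (1.19), and Alpl with scaling on spike-in spots (1.05). Tgfb2, a growth factor that acts upstream of Pthlh, differed by 0.39. The difference of Ihh was larger than that of each of these genes, and those of Gli1 and Acan lay close together.

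The members' differences kept their sign in all 12 alternative processings, and Ihh and Gli1 stayed past 2-fold in each. Not all of these could change them. Every measured member but Smo had 1 probe, so the settings for outlier spots, detection and probe choice left its value as it was. The array median, no scaling, spike-in spots and the deposited values moved all genes by 1 constant each. Only quantile normalization, cyclic loess and normexp could move a member with 1 probe by an amount of its own. Smo, with 2 probes, came to 0.32 with the mean over probes and 0.29 with the dimmest detected probe. Ihh ranged from 1.39 with normexp background correction to 1.78 with scaling on spike-in spots, and Gli1 from 1.09 to 1.55 between the same settings. With normexp Gli2 came to 0.45 and Pthlh to 0.34, both under 1.5-fold. Pthlh was also under 1.5-fold with cyclic loess (0.56) and the authors' deposited values (0.53), and Ptch1 passed it without scaling (0.62) and with scaling on spike-in spots (0.78), so that the count of members at least 1.5-fold higher ranged from 3 to 6. With scaling on spike-in spots the all-gene median was 0.27 in place of 0.05, and every member moved with it, so that Gli3, at 0.28, stayed close to that median. The share of higher genes among all those 2-fold apart was 42.4%, and 66.9% with that scaling.

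**Figure D4:**
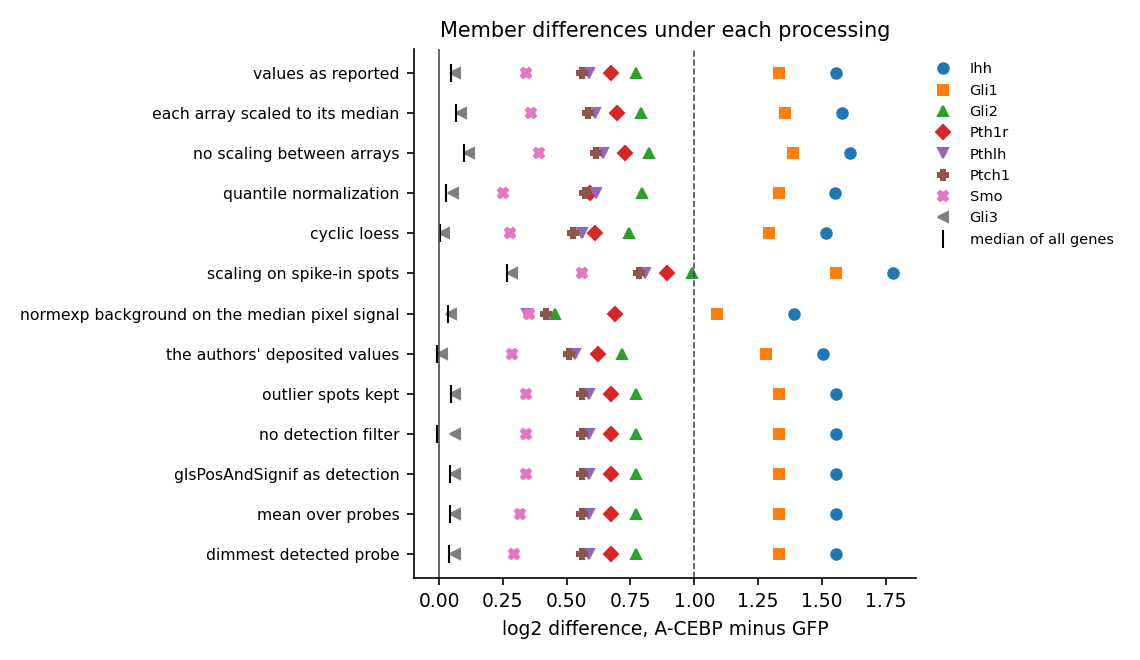
Log2 difference, A-CEBP minus GFP (x axis), of the 8 measured members under the reported processing and 12 alternatives (rows), with the median of all genes as ticks and the 2-fold size as a dashed line. Ihh and Gli1 lie beyond the dashed line in every row, Gli2 and Pthlh come to 0.45 and 0.34 with normexp, and Gli3 follows the median of all genes.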

How the data were processed

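Each sample gave 0.1 µg total RNA for Cy3-labelled cRNA, read on a 1-colour Agilent array, per the labels' protocols. The processed signal in the deposited files is a linear intensity from which Agilent Feature Extraction had removed background and spatial trends, per the file headers (10.10.1.1, per the submitters' processing notes). Arrays had not been scaled to each other. They shared 1 slide and 1 scan. The authors' deposited table holds the same intensity multiplied by 1 constant per array, 1.24 for GFP and 1.15 for A-CEBP (column medians 70.9 and 67.4). It is linear and not centred, and the basis of these constants stays unknown.

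The log2 processed signal minus each array's 75th percentile over non-control spots was used. Left out were control spots and 293 outlier spots. Spots of a probe were averaged, and a probe was called detected on an array if more than 50% of its spots were marked well above background. Each gene was represented by its brightest probe detected on both arrays. For a gene detected on 1 array only, a lower bound was computed against the higher of the dim reading and the lowest detected signal of that array. Transcript accessions were named through RefSeq tables of GRCm38.p6, which matched 27229 of 55671 probes (48.9%). The array design is of another build, mm9, so no gene coordinates were taken from that table, and promoter windows carry their own build. Differences are A-CEBP minus GFP. The size rule was 2-fold, with no test because each group held 1 sample. Replicate spots gave an SD of the log2 difference of 0.11 (291 probes), from 0.18 among the dimmest of 4 brightness groups to 0.05 among the brightest, and different probes of a gene 0.19. The number of arrays limits the precision. The procedure was tested on simulated data. R 4.3.3 with limma 3.58.1, Python 3.11.15 and pandas 2.3.3 were used.

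All members were named; of each wider list, genes at least 2-fold apart or the 4 with the largest differences, and stage genes freely. Other genes were added for their role, with their values known: Shh, Dhh, Gpc3, Lrp2, Arrb2, Sufu, Kif7, Mycn, Gnas, Hdac4, Sik3, Zfp521, Pth, Pth2 and Pth2r. Gsk3b, Evc, Creb1 and Gnaq were added, with their values known, to show other probes or settings. Foxc2, Foxl1, Nkx3-2 and Osr2 were added, with their values known, to show which hedgehog targets were lower. The members and lists were chosen with earlier results of these data known.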

Additional observations from a re-analysis of the deposited data

How the results depend on the processing

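The 8 measured members kept their direction in 12 alternatives: 5 other scalings (array median, none, quantile, cyclic loess, spike-in spots), the authors' deposited values, normexp background, outlier spots kept, no detection filter, another detection mark (positive and significant), the mean over probes and the dimmest detected probe. The count of members at least 2-fold higher stayed at 2 and that of lower members at 0 in each. At 1.5-fold, 5 members were higher, or 3 to 6 over these alternatives. The settings for outlier spots, detection and probe choice could not change a measured member with 1 probe, so they do not test its stability. Normexp used the median pixel signal, chosen after seeing the data, because the planned form on the mean pixel signal could not be run on the columns of these files. An offset of 50 units was added to each signal so corrected, which makes the differences of dim probes smaller. With scaling on spike-in spots the median was 0.85 over members, 0.38 over the wider lists and 0.27 over all genes, each moved by the same constant; with normexp it was 0.44 over members, and the cause was not tested. In the wider lists the count at least 2-fold lower went from 2 to 0 with spike-in scaling, since Gas1 and Mmp13 came to -0.85 each, and to 1 with the mean over probes, since the 3 probes of Gas1 differ. With no detection filter it was 3, over 84 genes. The count at least 2-fold higher was 6 under the reported processing. It ranged from 5, with the mean over probes and the dimmest detected probe, to 8 with spike-in scaling. Over all genes, 174 were at least 2-fold higher and 236 lower. The higher count was 350 with spike-in scaling, 97 with normexp, 603 with no detection filter and 380 with the other detection mark, the last 2 over 20657 and 16507 genes; the lower count was 883 and 565 with these 2. At 1.5-fold, 652 were higher and 527 lower. No paired analysis was possible because each group held 1 sample. Transgene, line and culture are confounded and cannot be told apart, and readings of Gli2, Pthlh and Hhip are limited by low signal over background.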
